A study of Mus musculus with 4 samples.

Results

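The genes described here encode collagens, laminins and other proteins of the extracellular matrix, with the proteases that cut them and the inhibitors of those proteases. Members were chosen by symbol from the table deposited by the authors: every collagen chain (Col), laminin chain (Lama, Lamb, Lamc), tissue inhibitor of metalloproteinases (Timp), ADAMTS or ADAMTS-like gene, thrombospondin (Thbs) and nidogen (Nid), and Fn1, Sparc, Fbn1, Vcan and Hspg2. They came to 73 transcript rows of 70 genes, out of 18061 rows of 16545 genes. Adamts2, Col18a1 and Vcan had 2 rows each. Symbols without a row, such as Col2a1, Col3a1, Lama1, Bgn, Dcn, Lum, Lox and Postn, were not analysed here.

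The cells were mouse leukaemic cells of the C57BL/6 strain carrying MLL-AF9, a fusion oncoprotein of acute myeloid leukaemia, taken from bone marrow and grown in liquid culture. All groups shared the genotype Ring1a-/-; Ring1b f/f; Cdkn2a-/-, so the controls also lacked Ring1a and Cdkn2a. Of 4 RNA-seq libraries, 2 came from cells given EtOH, the solvent, and 2 from cells given OHT, an oestrogen receptor ligand used to switch on Cre recombinase, each for 72 h; the labels call the OHT libraries RingKO. Ring1a and Ring1b are the catalytic subunits of Polycomb repressive complex 1 (PRC1), which marks histones at repressed genes, and the comparison asks which transcripts differ once Ring1b is targeted as well. The Cre transgene, the age of the mice and whether the libraries of a group came from separate cultures are not given in the sources used here. The p-values therefore measure the spread between these libraries, which may be technical.

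The table holds 1 mean per group, and whole reads of 2 libraries per group were recovered from each mean. They are called A and B within a group, letters that carry no replicate number. Recovered totals were 6255320 and 3841243 reads for EtOH libraries A and B and 5687967 and 4509718 for OHT libraries A and B. Values per library below are normalised reads, that is, reads divided by the library's size factor. Rnf2, which encodes Ring1b, had 687 and 583 normalised reads with EtOH and 716 and 797 with OHT, and its adjusted p in the authors' deposited table was 1. The RNA was thus not lower in the OHT libraries. Which exons are removed is not given in the sources used here, so a total over the transcript does not check the deletion. Ring1, which encodes Ring1a, had 49.8, 84.6, 149 and 93.8 normalised reads in EtOH A, EtOH B, OHT A and OHT B.

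Collagens are built from 3 chains wound into a helix. Fibrillar collagens assemble into fibres, while type IV collagen forms the network of basement membranes together with laminins, which are themselves trimers of an alpha, a beta and a gamma chain, and with nidogens and perlecan. ADAMTS proteases trim or cleave matrix proteins, and TIMPs inhibit matrix metalloproteinases. In marrow most of this matrix is made by stromal, bone-forming and endothelial cells, while blood cells bind it through integrins and other receptors and secrete a few components of their own, such as thrombospondin.

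The largest fold among the members in the authors' deposited table was that of Col4a1, which encodes a chain of type IV collagen and lies head to head with Col4a2, the gene of its usual partner chain. Their promoters are shown because the pair shares a start region and yet had very different levels in these cells. The windows run from 250 bases before to 50 bases after each start and are taken from RefSeq on build GRCm38.p6, whereas the deposited table follows mm9. Capitals mark GGGCGG and CCAAT on either strand. The Col4a1 window, chosen by rule as the member of the basement membrane group with the largest called change, is chr8:11312777-11313076 on the minus strand. The Col4a2 window is chr8:11312555-11312854 on the plus strand. It and the window of Col5a1, chr2:27886175-27886474 on the plus strand, were added after the values were seen, Col5a1 as the collagen that rose with the most reads.
Col4a1: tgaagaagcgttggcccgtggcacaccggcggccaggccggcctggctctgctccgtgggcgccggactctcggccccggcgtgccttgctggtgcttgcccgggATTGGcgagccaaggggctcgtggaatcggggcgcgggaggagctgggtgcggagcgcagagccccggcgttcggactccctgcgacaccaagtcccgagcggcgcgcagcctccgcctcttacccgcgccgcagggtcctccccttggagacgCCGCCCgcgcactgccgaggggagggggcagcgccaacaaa
Col4a2: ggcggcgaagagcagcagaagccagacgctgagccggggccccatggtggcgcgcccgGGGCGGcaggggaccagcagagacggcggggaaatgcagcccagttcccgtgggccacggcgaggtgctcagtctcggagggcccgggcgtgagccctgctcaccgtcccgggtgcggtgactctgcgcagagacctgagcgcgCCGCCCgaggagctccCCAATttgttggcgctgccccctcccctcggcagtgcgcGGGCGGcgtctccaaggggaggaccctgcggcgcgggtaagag
Col5a1: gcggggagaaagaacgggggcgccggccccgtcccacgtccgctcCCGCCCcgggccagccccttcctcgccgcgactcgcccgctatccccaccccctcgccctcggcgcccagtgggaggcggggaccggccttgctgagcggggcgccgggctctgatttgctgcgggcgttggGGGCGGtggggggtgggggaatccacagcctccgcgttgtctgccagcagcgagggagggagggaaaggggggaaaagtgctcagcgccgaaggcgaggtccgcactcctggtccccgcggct

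The starts of Col4a1 and Col4a2 lie 21 bases apart, and 78 bases belong to both windows. These promoters are rich in CpG, with 37 CpG dinucleotides in the 300 bases of Col4a1, 33 in Col4a2 and 34 in Col5a1. Windows were given for 52 of the 70 genes (54 windows), with a median of 15 CpG, against 7 over all 32851 windows of the table. The motif GGGCGG was found 1 time in Col4a1, 3 times in Col4a2 and 2 times in Col5a1, and it occurs in 35.7% of all windows. CCAAT, found in 37.4% of all windows, occurred 1 time each in Col4a1 and Col4a2 and was not found in Col5a1. The motifs TATAAA (13.6% of all windows) and TGANTCA (7.81%) were in none of the 3 windows, and GAGGAA (28.3%) was in that of Col5a1 alone among them. These matches are descriptions of sequence and not binding sites.

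Most of the members were scarce. In 21 of 73 rows (28.8%) no group had more than 3 reads, summed over its 2 libraries, against 17.0% of all transcripts. Another 26 rows were above this but had fewer than 10 reads in 2 libraries, the minimum for a fit with limma-voom on the recovered reads. The remaining 26 rows were fitted. Together the members held 0.325% and 0.270% of the reads of EtOH libraries A and B and 0.344% and 0.389% of those of OHT libraries A and B. A small number of transcripts made up most of this. Thbs1 alone gave 35.0% and 38.4% of the members' normalised reads with EtOH and 39.8% and 42.3% with OHT. Lama5 gave 33.6% and 26.3% with EtOH and 14.0% and 28.0% with OHT. Col4a1 gave 7.86% and 12.6% with EtOH and 0.327% and 0.348% with OHT. These are shares of reads, which also follow transcript length.

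By the authors' deposited table, and with a threshold of 0.05 on its adjusted p, 5 of 73 rows (6.85%) were called, against 5.48% of all its rows. Col5a1, Timp2 and Col1a1 were higher with OHT (3 rows, with a background of 3.62% higher), and Col4a1 and Adamtsl3 were lower (2 rows, background 1.85%). The limma-voom fit, adjusted over its 11338 fitted rows, called the same 5 and also Col5a3, Col23a1, Col27a1, Hspg2 and Adamts7, all higher. Its count of 10 was 38.5% of the 26 fitted members, against 15.2% of all fitted rows (9.72% higher, 5.49% lower). That share is not a measure of the set, because 5 members met the read minimum through the OHT libraries only, and 4 of these (Adamts7, Col1a1, Col27a1, Hspg2) are among the calls. Adamtsl3 met it through the EtOH libraries only. Of the 20 members fitted on reads of both groups, 4 were called higher and 1 lower.

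The direction of the members can be read from all 73 rows. The log2 fold change of the authors' deposited table was above 0 in 54 (74.0%), against 51.7% of all transcripts, with a median of 0.74 against 0.04. Leaving out rows with at most 3 reads in each group, 42 of 52 (80.8%) were above 0, against 49.8% of all transcripts above that level. Among low rows a positive sign was common in the whole table: it was found in 63.7% of all transcripts above 3 reads that were not fitted, and in 22 of 26 such members (84.6%). A row with 0 reads in 1 group passed that level only through the other group, which fixes its sign. Of these 26 members, 10 had 0 reads with EtOH and 0 had 0 reads with OHT. Over all 3659 such transcripts the counts were 363 and 52. The share of 80.8% is therefore no measure of the members' direction. In 35 members (47.9%) both OHT libraries were above both EtOH libraries, and in 5 (6.85%) both were below. Over the whole table these shares were 26.4% and 24.6%, or 51.0% together.

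**Figure D1:**
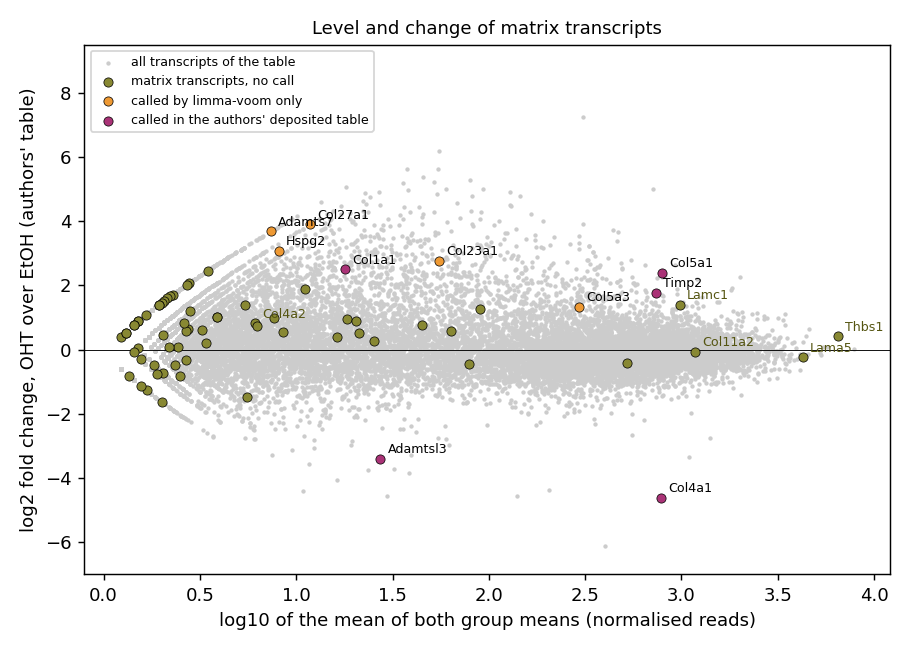
Each point is a transcript of the authors' deposited table: the x axis is the log10 of the mean of both group means in normalised reads, and the y axis the log2 fold change of OHT over EtOH. Col4a1 lies far below the other transcripts of its level, Col5a1 and Timp2 lie above 0 at a similar level, and Thbs1, Lama5 and Col11a2, on the right, lie near 0.

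Of the fibrillar collagens, 2 of 8 rows (Col5a1 and Col1a1) were higher in the authors' deposited table and 0 were lower. Over all its rows the shares were 3.62% and 1.85%. Limma-voom fitted 5 rows and called these and Col5a3 and Col27a1 higher, against 9.72% of all fitted rows. Col1a1 and Col27a1 met the read minimum through the OHT libraries only. Col5a1 encodes the main chain of type V collagen, which sits inside collagen fibrils and sets their width. It had 285 and 219 normalised reads with EtOH and 1586 and 1072 with OHT. Both OHT libraries lay well above both EtOH libraries. In the authors' deposited table the mean rose from 253 to 1330, or 5.25-fold, with an adjusted p of 0.000212. The limma-voom log2 fold change was 2.36 ± 0.27 (SE), adjusted p = 0.00156.

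Col5a3, another chain of type V collagen, had 190 and 142 normalised reads with EtOH and 539 and 303 with OHT. The groups did not overlap, though the OHT libraries differed from each other. Its fold in the authors' deposited table was 2.53 with an adjusted p of 0.251, while limma-voom gave a log2 fold change of 1.29 ± 0.33, adjusted p = 0.0276. That call was lost without OHT library A (0.86, limma-voom adjusted p = 0.261) and without EtOH library B (1.11, limma-voom adjusted p = 0.0541). The chain Col5a2, which joins Col5a1 in most type V collagen, was nearly absent, with 2 reads over the EtOH and 3 over the OHT libraries. Per kilobase of transcript Col5a1 stood at 1.09 and 1.12 times Col5a3 with EtOH and at 2.14 and 2.58 times with OHT.

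Col1a1 encodes the major chain of type I collagen, the main protein of bone and tendon. It had 4 reads in each EtOH library and 38 and 24 in OHT libraries A and B. The groups were clearly separated but the level remained low in all 4 libraries. The authors' deposited table gives means of 5.33 and 30.3, a fold of 5.69 and an adjusted p of 0.0361. Limma-voom gave 2.72 ± 0.61 on the log2 scale (adjusted p = 0.0173), and this adjusted p became 0.0572 without OHT library A. Its partner chain Col1a2 had 3 reads, all in EtOH library B, and 0 with OHT.

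Col27a1, a fibrillar collagen of cartilage, had 1 and 0 reads in EtOH libraries A and B and 36 and 11 in OHT libraries A and B. The ratio of reads, scaled by size factors, was 44.5, with a 95% interval of 7.60 to 1793 that covers counting error only. Limma-voom called it higher (log2 fold change 4.52 ± 0.83, adjusted p = 0.00788), and its adjusted p in the authors' deposited table was 0.0800. Col11a2, a chain of type XI collagen, stood at 170 and 228 normalised reads per kilobase with EtOH, near Col4a1 at 201 and 257. Its groups overlapped, with 1027 and 1380 normalised reads with EtOH and 1470 and 838 with OHT. The limma-voom log2 fold change of Col11a2 was -0.10 ± 0.28, adjusted p = 0.847. Col24a1 had 4 reads, all in OHT library B.

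**Figure D2:**
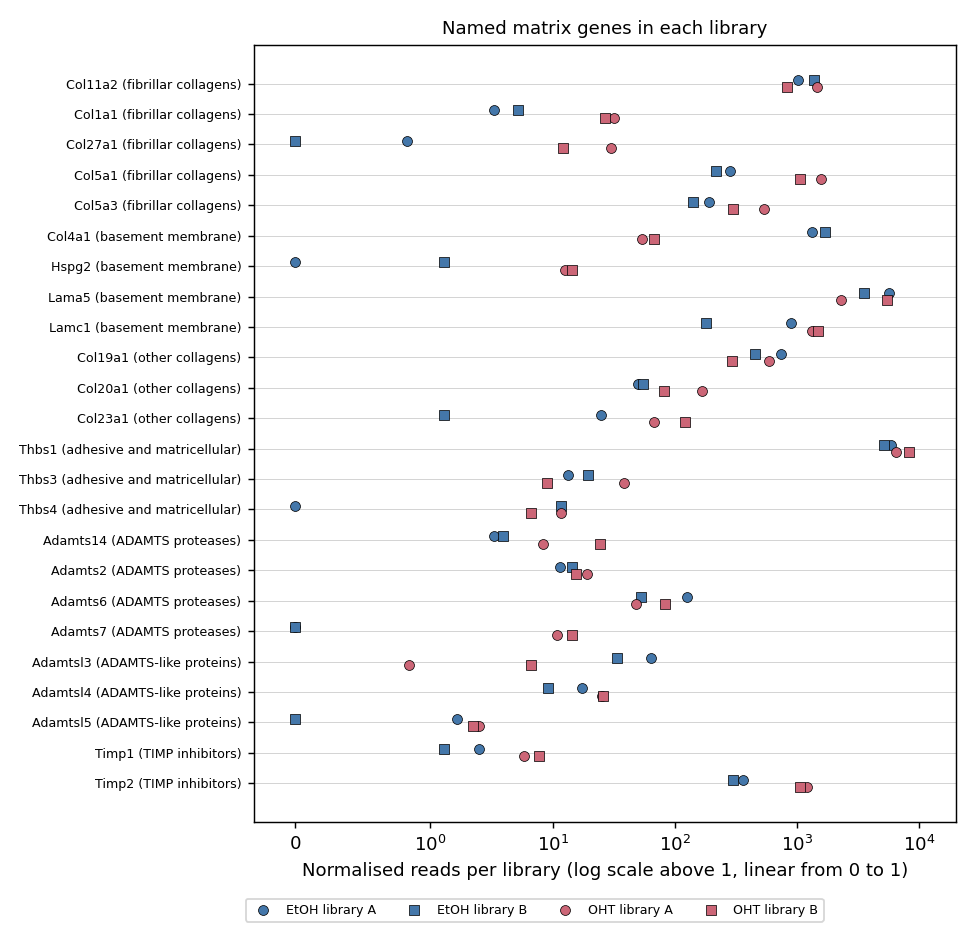
Normalised reads (x axis, logarithmic above 1 and linear from 0 to 1) of the named genes with more than 3 reads in a group; circles are libraries A and squares libraries B, blue for EtOH and red for OHT. Col4a1 and Adamtsl3 have both red symbols to the left of both blue ones, and Col5a1, Timp2, Col1a1 and Adamts7 have both to the right, while those of Lama5 and Col11a2 interleave.

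Among genes of the basement membrane, 1 of 18 rows was called in the authors' deposited table, against 5.48% of all its rows. That row was Col4a1, with 1327 and 1697 normalised reads with EtOH and 53.8 and 68.1 with OHT. Both OHT libraries were far below both EtOH libraries, and within each group the libraries were close to each other. The mean fell from 1513 to 61.9 in the authors' deposited table, a 24.4-fold lower level, with an adjusted p of 1.46e-25. By limma-voom the log2 fold change was -4.63 ± 0.31 (adjusted p = 0.000319), and it lay between -4.81 and -4.44 with any 1 library left out.

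The other chains of type IV collagen were close to the floor. Col4a2 had 5 and 2 reads in EtOH libraries A and B and 11 and 4 in OHT libraries A and B, and its adjusted p in the authors' deposited table was 1. Both of its OHT values were above the EtOH values, the opposite order to Col4a1, on few reads (ratio 2.03, 95% interval 0.778 to 5.88, counting error only). Col4a4 had 6, 7, 2 and 2 reads in EtOH A, EtOH B, OHT A and OHT B, and Col4a3 and Col4a6 had no more than 2 reads in either group. Per kilobase of transcript, Col4a1 exceeded Col4a2 by 312 and 635 times in EtOH libraries A and B. With OHT the excess was 5.67 and 14.9 times. Reads of the chain that pairs with Col4a1 in the usual type IV collagen were thus few in every library. Exons of Col4a1 and Col4a2 overlap on opposite strands in the GENCODE M21 annotation, and the kit used keeps no strand information.

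Laminin transcripts were led by Lama5, an alpha chain, and Lamc1, the gamma chain of most laminins. Lama5 had 5676 and 3548 normalised reads with EtOH and 2297 and 5488 with OHT. The lowest value was an OHT library and the other OHT library reached the level of the highest EtOH one. Its limma-voom log2 fold change was -0.34 ± 0.37 (adjusted p = 0.579). This value depended on more than 1 library. The limma-voom log2 fold change was -0.99 with OHT library B left out and 0.27 with OHT library A left out. Dropping a control library instead gave 0.03 (EtOH A dropped) or -0.65 (EtOH B dropped).

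Lamc1 had 897 and 180 normalised reads with EtOH and 1329 and 1509 with OHT. The groups did not overlap, but EtOH library B was far below EtOH library A. Its fold in the authors' deposited table was 2.63 with an adjusted p of 0.286. The limma-voom log2 fold change was 1.72 ± 0.53, adjusted p = 0.0541. Leaving out EtOH library A gave 2.98, and leaving out EtOH library B gave 0.66. It was called higher without EtOH library A, OHT library A or OHT library B, and not without EtOH library B (limma-voom adjusted p = 0.0673).

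The beta chains that would complete a laminin trimer were near 0: Lamb1 had 3 reads over the EtOH and 6 over the OHT libraries, and Lamb2 had 3 and 9. In normalised reads per kilobase, Lama5 had 498, 312, 202 and 482 in EtOH A, EtOH B, OHT A and OHT B, and Lamc1 had 118, 23.6, 174 and 198. No beta chain exceeded 0.895 per kilobase in any library. Lama3 and Lamc3 had at most 5 reads per group. Both OHT libraries were above both EtOH libraries in 5 laminin rows, 4 of them with 9 reads or fewer per group, and in none were both below. Over the whole table these shares are 26.4% and 24.6%.

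Hspg2, which encodes perlecan, the heparan sulphate proteoglycan of basement membranes, had 0 and 1 reads in EtOH libraries A and B and 15 and 13 in OHT libraries A and B. The scaled ratio was 26.5 (95% interval 4.38 to 1083, counting error only). Limma-voom called it higher (3.95 ± 0.83 on the log2 scale, adjusted p = 0.0134), whereas the authors' deposited table has an adjusted p of 0.152. Hspg2 met the read minimum through the OHT libraries only, where it is high. With EtOH library A left out the log2 fold change was 2.84, and with EtOH library B left out 5.07. These fits kept the rows chosen with all 4 libraries and so do not test that selection. Nid2, a linker of laminin and type IV collagen, had 45.6 and 54.7 normalised reads with EtOH and 112 and 39.1 with OHT, so its groups overlapped. Its relative Nid1 had 1 read in all. Col15a1, a collagen at the outer face of basement membranes, had 9.95 and 13.0 normalised reads with EtOH and 21.0 and 25.7 with OHT and was not called by either test. The main row of Col18a1, the source of endostatin, had 10 reads in EtOH library A, 0 in EtOH library B, and 6 and 12 with OHT.

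**Figure D3:**
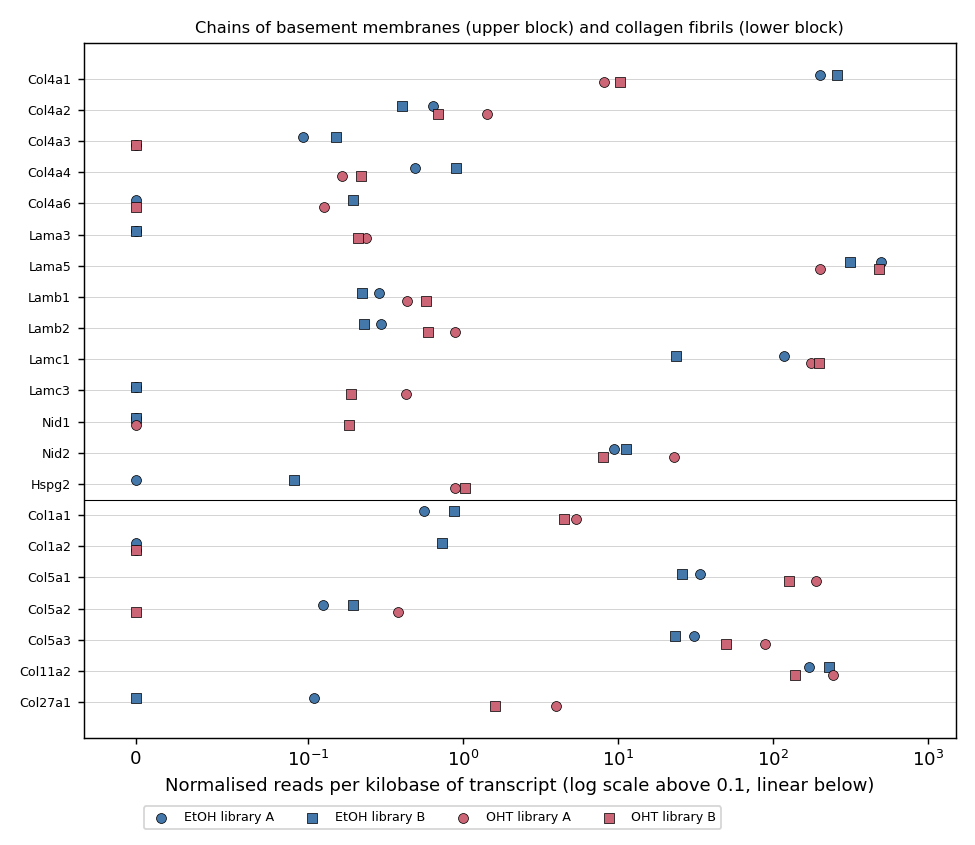
Normalised reads per kilobase of transcript (x axis, logarithmic above 0.1 and linear below) for chains of basement membranes (upper block) and of collagen fibrils (lower block), with circles for libraries A, squares for libraries B, blue for EtOH and red for OHT. Col4a1 stands far to the right of Col4a2 in both groups, and Lama5 and Lamc1 stand far to the right of Lamb1 and Lamb2.

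The other collagens comprised 19 rows, most of them with few reads, and 0 passed the threshold in the authors' deposited table (1 at an unadjusted p under 0.05). Limma-voom fitted 5 of them and called 1, against 15.2% of all fitted rows. The row called was Col23a1, a membrane-spanning collagen. It had 24.9 and 1.30 normalised reads in EtOH libraries A and B and 68.0 and 123 in OHT libraries A and B. The groups were separate, with EtOH library B nearly empty of this transcript. Its limma-voom log2 fold change was 3.45 ± 0.87 (adjusted p = 0.0268), which became 5.52 when EtOH library A was left out and 1.82 when EtOH library B was, called in both cases. The authors' deposited table gives a fold of 6.81 and an adjusted p of 0.0725.

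Col19a1 and Col20a1 encode collagens that associate with fibrils. Col19a1 had the most reads of this group, with 743 and 453 normalised reads with EtOH and 597 and 294 with OHT, which overlapped (limma-voom log2 fold change -0.47 ± 0.35, adjusted p = 0.395). Col20a1 had 49.8 and 54.7 with EtOH and 169 and 82.6 with OHT. Both OHT values of Col20a1 were higher, but its limma-voom adjusted p was 0.0756 and in the authors' deposited table its adjusted p was 0.416. Col7a1, which forms anchoring fibrils, and Col9a3, a chain of type IX collagen, overlapped between groups. The 5 chains of type VI collagen, a microfibril collagen of connective tissue, had at most 7 reads per group. Col6a1, Col6a2 and Col6a3 had 0 reads with EtOH and 7, 4 and 4 with OHT. Col12a1 and Col13a1 likewise had 0 reads with EtOH and 11 and 7 with OHT, under the minimum for the fit.

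Among adhesive and matricellular proteins 0 of 6 rows were called in the authors' deposited table or by limma-voom, and 0 had an unadjusted p under 0.05 in either. The shares called were 5.48% of all rows in the authors' deposited table and 15.2% of all rows fitted by limma-voom. Thbs1, a secreted glycoprotein that binds CD47 and other receptors, had the most reads of all members, also per kilobase. It had 5909 and 5182 normalised reads with EtOH and 6544 and 8281 with OHT. Both OHT libraries were above both EtOH libraries, without passing either test: the limma-voom log2 fold change was 0.41 ± 0.21 (adjusted p = 0.211), and the fold in the authors' deposited table was 1.34 with an adjusted p of 0.667. Per kilobase it had 1010 and 886 normalised reads with EtOH and 1119 and 1416 with OHT, between 2.03 and 5.55 times Lama5 in the same library. Thbs3 had 13.3 and 19.5 normalised reads with EtOH and 38.6 and 8.93 with OHT, and Thbs4 had 0 and 11.7 with EtOH and 11.8 and 6.70 with OHT; both overlapped. Fn1 (fibronectin), Sparc and Fbn1 (fibrillin), which fibroblasts make in quantity, had 0, 2 and 7 reads with EtOH and 2, 5 and 14 with OHT.

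Of the ADAMTS proteases, Adamts7 was the only one called, and by limma-voom alone. None of the 13 rows passed the threshold in the authors' deposited table, against 5.48% of all its rows. An unadjusted p under 0.05 was found for 1 row there and for 2 by limma-voom. Limma-voom fitted 4 of the rows and called 1, against 15.2% of all fitted rows. Adamts7 had 0 reads in both EtOH libraries and 13 in each OHT library. Set against the floor of 3 reads over the EtOH group, the OHT reads were 8.20-fold higher, a value that leaves out counting error. Adamts7 met the read minimum through the OHT libraries only. Limma-voom gave an adjusted p of 0.00451, and the adjusted p in the authors' deposited table was 0.127. Exons of Adamts7 overlap those of Tbc1d2b on the opposite strand; Tbc1d2b had 1228 and 1137 normalised reads with EtOH and 980 and 959 with OHT, and its part in these reads was not tested. Adamts6 had the most reads of the proteases, at 126 and 53.4 normalised reads with EtOH and 47.9 and 83.7 with OHT, with overlapping groups. Adamts2 and Adamts14, which remove the amino-terminal propeptide of fibrillar procollagens, were both low. Adamts14 had 3.32 and 3.91 normalised reads with EtOH and 8.40 and 24.6 with OHT, and the main row of Adamts2 had 11.6 and 14.3 with EtOH and 19.3 and 15.6 with OHT. Both were above EtOH in each OHT library, and neither was called by either test.

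Adamtsl3 belongs to the ADAMTS-like proteins, which resemble the proteases but have no catalytic domain. It had 63.9 and 33.9 normalised reads in EtOH libraries A and B and 0.840 and 6.70 in OHT libraries A and B. Both OHT values were below both EtOH values. The mean fell from 49.9 to 4.75 in the authors' deposited table, 10.5-fold lower, with an adjusted p of 0.00576. Adamtsl3 met the read minimum through the EtOH libraries only, where it is high. The limma-voom log2 fold change was -4.11 ± 0.84 (adjusted p = 0.0119). Without OHT library A it was -2.74 with an adjusted p of 0.0576 by limma-voom, and without OHT library B it was -5.27. Adamtsl4, a relative that binds fibrillin microfibrils, had 17.4 and 9.11 normalised reads with EtOH and 25.2 and 25.7 with OHT and was not called. Adamtsl5 had 2 reads over the EtOH and 5 over the OHT libraries.

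Timp2 rose and was the only inhibitor with more than 14 reads in a group. It encodes a secreted inhibitor of matrix metalloproteinases. It had 367 and 302 normalised reads with EtOH and 1218 and 1062 with OHT. The 2 libraries of each group were close together and the groups far apart. The mean rose from 335 to 1141 in the authors' deposited table, 3.40-fold, with an adjusted p of 6.51e-07, and the limma-voom log2 fold change was 1.76 ± 0.22 (adjusted p = 0.00245). Left out in turn, no library moved that value outside 1.63 to 1.91. Timp1 had 3, 1, 7 and 7 reads in EtOH A, EtOH B, OHT A and OHT B, a scaled ratio of 3.31 (95% interval 1.04 to 13.8, counting error only), and the authors' deposited table has an adjusted p of 0.985 for it. Timp3 had 1 read over the EtOH and 3 over the OHT libraries. Versican (Vcan), a chondroitin sulphate proteoglycan and the one proteoglycan outside the basement membrane group, had 2 reads or fewer per group in each of its 2 rows.

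The 2 libraries of a group often differed in these genes. Over the 26 fitted members the median fold between libraries, with 0.5 added to each normalised value, was 1.44 for EtOH and 1.75 for OHT, against 1.29 and 1.19 over all fitted transcripts, which were not matched to the members in level. It was at least 2-fold in 7 of 26 members for EtOH and 10 of 26 for OHT, against 1360 and 777 of all 11338 fitted transcripts. Col18a1 (17.6-fold), Col23a1 (14.1-fold) and Lamc1 (4.98-fold) differed most between the EtOH libraries, and Adamtsl3 (5.37-fold) and Thbs3 (4.15-fold) between the OHT libraries. Col4a1, Col5a1 and Timp2 differed by at most 1.48-fold between libraries of the same group.

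**Figure D4:**
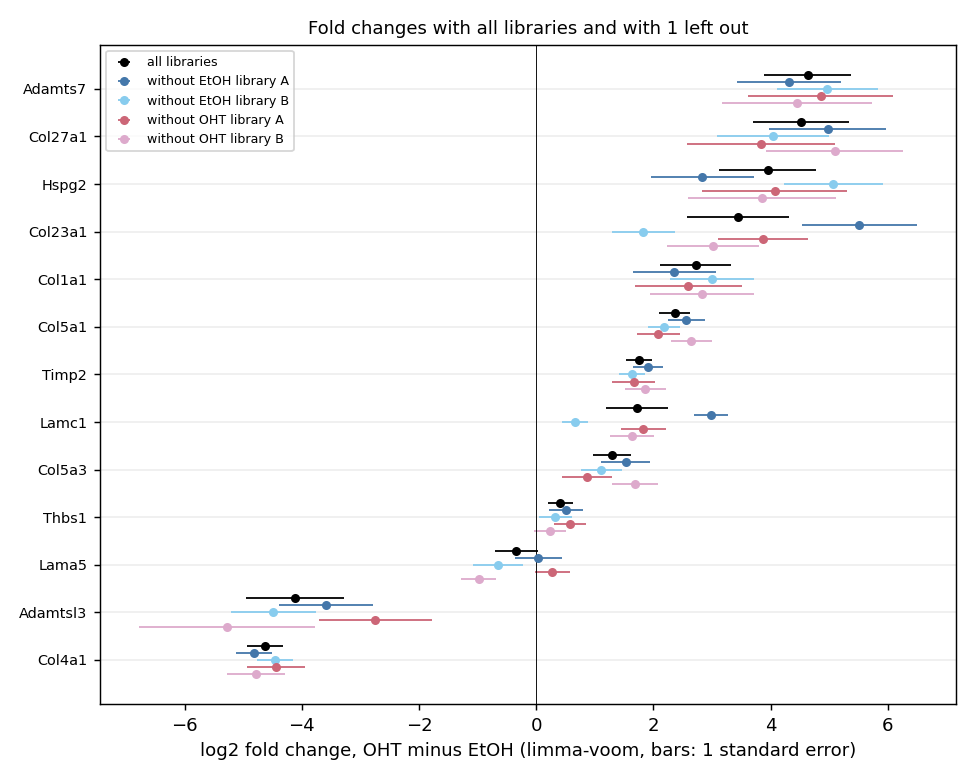
Limma-voom log2 fold changes (x axis, OHT minus EtOH, bars 1 standard error) of 13 members with all 4 libraries (black) and with each library left out (colours); a fit with 1 library in a group assumes that it varies like the others. Col4a1, Timp2 and Col5a1 barely move, Lamc1 spans 0.66 to 2.98, Col23a1 spans 1.82 to 5.52, and Lama5 lies on both sides of 0.

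Genes of the machinery that modifies and crosslinks collagen were listed beside the members. Of 26 genes listed, 17 had rows (18 rows), and 0 passed the threshold in the authors' deposited table, where 2 had an unadjusted p under 0.05. Limma-voom fitted 12 rows and called 1 higher and 0 lower, against 9.72% and 5.49% of all fitted rows (4 and 0 at an unadjusted p under 0.05). The row called was that of P4ha2, a subunit of prolyl hydroxylase, with 3 and 2 reads with EtOH and 18 and 13 with OHT (limma-voom log2 fold change 2.33 ± 0.68, adjusted p = 0.0455). That row met the read minimum through the OHT libraries only. The genes of the list with the most reads were P4hb, the other subunit, with 2983 and 3555 normalised reads with EtOH and 3148 and 3903 with OHT, and the lysyl hydroxylase Plod3, with 1761 and 2012 with EtOH and 1670 and 1748 with OHT. P4hb overlapped between groups, and Plod3 did not but differed by no more than its spread (limma-voom log2 fold change -0.14 ± 0.20, adjusted p = 0.676).

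Several receptors for matrix were higher with OHT. The authors' deposited table has 4 of 29 rows (28 genes; 13.8%) higher and 0 lower, against 3.62% and 1.85% of all its rows. Limma-voom called 7 of 17 fitted rows higher and 0 lower, against 9.72% and 5.49% of all fitted rows; 2 of the 7, Itga3 and Itga7, met the read minimum through the OHT libraries only. Among them were 3 syndecans, transmembrane heparan sulphate proteoglycans that bind matrix and growth factors. Sdc1 had 39.8 and 35.2 normalised reads with EtOH and 674 and 483 with OHT (limma-voom log2 fold change 3.91 ± 0.36, adjusted p = 0.00094). Sdc4 had 46.4 and 22.1 with EtOH and 391 and 405 with OHT (limma-voom 3.54 ± 0.38, adjusted p = 0.00148). Sdc3 had 387 and 122 with EtOH and 1573 and 1624 with OHT (limma-voom 2.78 ± 0.40, adjusted p = 0.00342). The laminin-binding integrin chain Itga3 had 4.98 and 9.11 with EtOH and 109 and 91.5 with OHT (limma-voom 3.85 ± 0.53, adjusted p = 0.00333). In all 4 receptors the OHT libraries were several times above the EtOH libraries. By limma-voom alone, Itga7, another laminin-binding chain, Itga1, a collagen-binding chain, and Itgb3 were higher, with log2 fold changes of 1.88, 1.38 and 1.59. The receptors with the most reads, Itgb1 (2053 and 1454 normalised reads with EtOH, 1764 and 2496 with OHT) and Cd47 (1820 and 1974, then 1677 and 2229), overlapped between groups.

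Markers of cell types that make matrix in marrow were measured beside these results. In bulk RNA, more cells of a type and more RNA per cell cannot be told apart. As background, the authors' deposited table called 3.62% of all rows higher and 1.85% lower, and limma-voom 9.72% and 5.49% of fitted rows. Limma-voom fitted 7 stroma, 4 bone, 3 endothelial, 5 megakaryocyte, 4 epithelial, 1 adipocyte and 12 myeloid marker rows. Summed normalised reads of 13 rows of fibroblast and stroma markers were 425 and 508 with EtOH and 1183 and 1262 with OHT. The genes S100a4, Pdpn, Thy1 and Acta2 (4 rows) were called higher in the authors' deposited table, and 0 rows lower. Limma-voom called the same 4 genes. Vcam1, the marker of this list with the most reads, had 226 and 349 normalised reads with EtOH and 201 and 46.9 with OHT, lower in both OHT libraries but not called (limma-voom log2 fold change -1.42 ± 0.52, adjusted p = 0.0922). Lepr, a receptor of marrow stroma, had 12.4 and 28.7 with EtOH and 13.4 and 11.2 with OHT, which overlapped. Their defining receptors Pdgfra and Pdgfrb had 0 reads with EtOH and 3 each over the OHT libraries, and no row of Cxcl12 had more than 1 read in a library. Bone-forming markers (9 rows) summed to 141 and 76.8 with EtOH and 207 and 243 with OHT, with Spp1 called higher in the authors' deposited table and Sp7, Bglap and Ibsp at 3 reads or fewer. The Runx2 row with the most reads overlapped between groups, with 71.3 and 40.4 normalised reads with EtOH and 79.8 and 50.2 with OHT. Endothelial markers (9 rows) summed to 349 and 231 with EtOH and 763 and 923 with OHT, with Flt1 called higher in the authors' deposited table, Vwf by limma-voom only, and Cdh5 at 3 reads with EtOH and 0 with OHT.

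Megakaryocyte markers (7 rows), of a lineage that secretes thrombospondin, summed to 2392 and 1694 with EtOH and 2410 and 3902 with OHT, and Pf4 among them was called higher in the authors' deposited table and Gp9 by limma-voom only. Ppbp and Itga2b, which give most of that sum, were not called. Epithelial markers (4 rows) summed to 276 and 257 with EtOH and 750 and 1355 with OHT, with Cdh1 called higher in the authors' deposited table and Epcam and Krt18 by limma-voom only. Krt8, the remaining marker of that list, overlapped between groups and was not called. It had 24.9 and 27.3 normalised reads with EtOH and 25.2 and 86.0 with OHT. Adipocyte markers (5 rows) summed to 1.66 and 3.91 with EtOH and 21.8 and 15.6 with OHT, with no call in the authors' deposited table and Fabp4 called higher by limma-voom. Gp9 and Fabp4 met the read minimum through the OHT libraries only. Myeloid markers (15 rows), which define the labelled cells, summed to 5567 and 6897 with EtOH and 7961 and 6838 with OHT, and none was called in the authors' deposited table. Limma-voom called Csf1r, the receptor of a macrophage growth factor, higher: it had 229 and 124 normalised reads with EtOH and 1471 and 746 with OHT (log2 fold change 2.58 ± 0.39, adjusted p = 0.00396). Spi1 had 1193 and 1510 normalised reads with EtOH and 1458 and 1460 with OHT, and Cebpa had 1185 and 1008, then 1120 and 1291. Other myeloid markers varied between libraries of a group. Mpo had 18.2 and 160 with EtOH and 351 and 50.2 with OHT, and Elane had 110 and 527, then 504 and 160. The rows of Kit and Csf3r had at most 9 reads in any library. Flt1 and Vwf gave most of the endothelial sum, while Pecam1 overlapped between groups (33.2 and 14.3 normalised reads with EtOH, 10.1 and 23.4 with OHT). The megakaryocyte sum of OHT library A (2410) hardly exceeded that of EtOH library A (2392). The sums of the stroma, bone, endothelial, adipocyte and epithelial lists were higher in both OHT libraries, as were Col5a1, Col1a1 and Timp2. The part of the listed cell types in those results was not tested.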

How the data were processed

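RNA was prepared with a kit of the RNeasy series and libraries with the unstranded TruSeq RNA chemistry, per the labels' protocols. TopHat, DESeq and build mm9 are named in the submitters' processing notes; the counting program is not given in the sources used here. The only table holds the authors' comparison of OHT with EtOH. Its signal columns are the deposited group means of normalised reads, its ratio column is the deposited fold of OHT over EtOH, its log2 column is the deposited log2 of that fold, and its p-value columns are the deposited p and the p adjusted by the authors, the latter matching Benjamini-Hochberg over the table to within 2.63e-06. The settings of that test are not stated, and 1297 symbols have more than 1 transcript, between which reads may be split.

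Each deposited mean was solved as the average of 2 libraries of whole reads, each with 1 read added and divided by a size factor (1.206 and 0.768 for EtOH, 1.191 and 0.896 for OHT). Every row solved, 99.9945% of EtOH rows and 100% of OHT rows uniquely. Of means moved by up to 0.1%, 0.814% (EtOH) and 0.781% (OHT) still solved. Recovered reads with at least 10 reads in 2 libraries (11338 rows) were fitted with limma 3.58.1 (voom, R 4.3.3, 2 residual degrees of freedom) and adjusted by Benjamini-Hochberg, calls being an adjusted p under 0.05. Data were simulated for this comparison with 11086 transcripts, a dispersion of 0.05 for every transcript and 50 changed genes per size. There 4%, 12%, 90% and 96% of 1.5-, 2-, 4- and 8-fold changes were recovered, and 6.48% of 108 calls were unchanged genes. Changes of 2-fold or less were mostly missed there. The fitted members differed more between libraries than all fitted transcripts did, so these rates may not hold for them.

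The members and all gene lists were chosen with earlier results of these data known. Named members are those called by either test and the 3 with the highest mean of each role group, and of the collagen processing and receptor lists the called genes and the 2 with the highest mean; other names were chosen after their values were seen. Transcript lengths (71 of 73 rows) and exon overlaps come from GENCODE M21 on GRCm38 by RefSeq accession, and promoters from RefSeq. Other scalings, read minimums and left-out libraries were tried. Near-identical and overlapping genes cannot be told apart here. 1 member is not reported by name here.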

Additional observations from a re-analysis of the deposited data

How the results depend on the processing

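No paired analysis was possible because the deposited columns carry no replicate numbers. The 5 members called in the authors' deposited table became 10 by limma-voom, 4 at an adjusted p under 0.01 and 7 under 0.1. Over all 11338 fitted rows limma-voom called 1102 higher and 623 lower. Those counts were 1290 and 493 under TMM scaling. They were 1646 and 800 of 18061 rows with no read minimum, and 903 and 616 of 9337 rows with at least 30 reads. The 10 limma-voom calls of members became 11 under TMM scaling (Lamc1 added), 15 with no read minimum, and 5 with at least 30 reads in 2 libraries (Adamts7, Adamtsl3, Col1a1, Col27a1 and Hspg2 no longer called), since fewer members were then fitted. They ranged from 8 to 13 with 1 library left out and stayed at 10 with library totals as scaling and with 1 transcript per symbol, an alternative chosen after seeing the data. The median log2 fold change of fitted fibrillar collagens (2.36) was 1.35 with no minimum and 1.29 with at least 30 reads, and with 1 library left out lay between 2.08 and 2.65. That minimum took the basement membrane median from 1.01 to 0.081 (4 rows) and that of ADAMTS proteases from 1.13 to -0.49 (1 row). With 1 library left out, the median of the other collagens (0.93) ranged from 0.28 without EtOH library A to 1.40 without OHT library B, the basement membrane median from 0.60 to 1.17 and the ADAMTS median from 0.85 to 1.46. Some fitted members met the read minimum through the OHT libraries only, where they are high. They were Col1a1 and Col27a1 (fibrillar), Hspg2 (basement membrane), and Adamts7 and Adamts14 (ADAMTS). The medians of those groups are therefore no measure of their direction.

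Collagen processing calls (1) became 2 under TMM scaling, 2 with library totals, 4 with no minimum and 0 with at least 30 reads, and ranged from 0 to 2 with 1 library left out. Calls among matrix receptors (7) became 11 with no minimum and ranged from 4 (without EtOH library B) to 9 with 1 library left out. With 1 library left out, myeloid marker calls (1) ranged from 1 to 3 and calls among markers of other cell types (13) from 10 to 16; the latter were 17 with no minimum. Of 222 values of single members, 200 kept their direction and side of the threshold, 9 passed it newly, 4 lost it (Adamtsl3 and Col1a1 without OHT library A, Col5a3 without OHT library A or EtOH library B) and 9 changed sign, all in members not called with the 4 libraries together and all with 1 library left out. With each library left out in turn the log2 fold change ranged from -1.02 to 0.203 for Adamts6, -0.495 to 0.315 for Col11a2, -0.040 to 3.70 for Col18a1, -1.0 to 0.020 for Col19a1, -0.985 to 0.274 for Lama5, -0.335 to 1.17 for Nid2 and -0.764 to 1.28 for Thbs3. The median of all fitted transcripts was -0.07, and -0.002 with TMM scaling. The cause of these shifts was not tested, apart from the number of rows fitted. At these depths, 47 of 73 rows had too few reads to be fitted.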
